A study of Homo sapiens with 30 samples.

Results

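Genes of the WNT pathway were followed through the differentiation of human embryonic stem cells to cardiomyocytes, in wild-type (WT) cells and in cells labelled as a QKI knockout (KO). Members were taken by gene symbol: every numbered WNT ligand and frizzled (FZD) receptor, the secreted frizzled-related proteins (SFRP), the DKK and R-spondin (RSPO) families, and LGR4 to LGR6. To these were added LRP5, LRP6, AXIN1, AXIN2, RNF43, ZNRF3, LEF1, TCF7, TCF7L1, TCF7L2, SP5, NKD1 and NOTUM. This gave 57 of the 39126 genes of the whole-cell count table, and the same Ensembl identifiers were read in the table of nuclear RNA. By role these were 19 WNT ligands, 10 frizzled receptors, 2 LRP coreceptors, 9 genes of the R-spondin axis, 9 secreted antagonists, 4 TCF/LEF factors and 4 feedback genes acting inside the cell. Of the 57, 52 passed the filter on low counts in whole-cell RNA and 56 in nuclear RNA. The 5 not tested in whole cells, DKK4, SFRP4, WNT1, WNT10A and WNT7A, averaged at most 0.129 CPM in any whole-cell group. CPM here are counts scaled to the total of each library as adjusted by the trimmed mean of M values (TMM). WNT1 was also not tested in nuclear RNA.

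WNT ligands are lipid-modified secreted proteins that bind a frizzled receptor and, in the branch that acts through beta-catenin, the coreceptor LRP5 or LRP6. Binding stops the complex built on AXIN1 and AXIN2 from destroying beta-catenin, which then joins TCF/LEF factors on DNA and switches on target genes. Several targets, among them AXIN2, RNF43, ZNRF3, NKD1 and NOTUM, damp the pathway in turn. In the making of heart cells from pluripotent cells, WNT activity is needed first to form mesoderm and has to fall afterwards for cardiac progenitors to appear.

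The cells were Hues6, a human embryonic stem cell line, and QKI KO cells of that line. QKI is an RNA-binding protein that acts on splicing. RNA was sequenced as bulk libraries at day 0 (D0), day 4 (D4) and day 8 (D8), with 3 libraries per genotype and day, and from D8 nuclei with 3 libraries per genotype. At D0 the cells were pluripotent and had been plated overnight in growth medium, with neither drug. At the start of differentiation WT cells received 1.5 uM CHIR, an inhibitor of GSK3 that turns the WNT pathway on, and KO cells received 1.25 uM. Both genotypes received 1.5 ng/mL BMP4, and both later received 100 nM C59, an inhibitor of the enzyme PORCN that ligands need for secretion, up to the D4 collection. C59 was given once more after D4, at a concentration that the labels write as 100 mM, and D8 cells were collected once beating had been seen. According to the labels, cells were crosslinked with UV light at collection, and the CHIR doses came from a screen of differentiation efficiency in each genotype. Genotype and CHIR dose therefore cannot be told apart in any KO against WT difference at D4 or D8, or in nuclear RNA, whereas D0 cells had seen no CHIR. The labels do not say whether the KO is 1 clone, nor whether libraries came from separate cultures. Each p-value reflects the spread among libraries within groups, which may be technical. That spread was estimated jointly over the groups of all 18 whole-cell libraries, and separately over those of the 6 nuclear libraries.

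Whole-cell libraries held 40001076 to 89948185 counts and nuclear libraries 6549676 to 15030590. QKI itself was read first, with libraries here and below in order of their replicate number (D8 WT libraries are numbered 2, 3 and 4 and D8 KO libraries 1, 2 and 4). QKI stood at 300.4, 294 and 286 CPM in WT and 41.3, 41.3 and 35.5 CPM in KO at D0, and at 144, 139 and 156 CPM against 88.5, 68.2 and 78 CPM at D4. At D8 it stood at 368, 319 and 285 CPM in WT and 339.8, 329 and 337 CPM in the libraries labelled KO, with no call, and in nuclear RNA at 187, 139 and 152 CPM against 473, 535 and 509 CPM, higher under the KO label. QKI RNA was thus below WT in the KO libraries at D0 and D4 only, and the D8 and nuclear samples are called the libraries labelled KO throughout; every direction given for them rests on that label. Summed pluripotency markers lay at 6813 to 7108 CPM in WT and 7371 to 7986 CPM in KO at D0, and summed cardiomyocyte markers reached 9146 to 16200 CPM in WT and 25670 to 30130 CPM in the libraries labelled KO at D8, from 7.71 to 9.11 CPM in WT at D0. The kit keeps strand, but no source used here gives the strand setting of the counting. Exons of 13 members (DKK1, FZD4, FZD6, LEF1, LGR5, NKD1, RNF43, TCF7, TCF7L2, WNT11, WNT2, WNT2B and WNT4) overlap exons of a gene on the other strand in GENCODE v29, so their values are uncertain to that extent. In bulk RNA, fewer cells of a type and less RNA per cell cannot be told apart.

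Most members changed with the day in WT cells, as did most genes. From D0 to D4, 36 of the 52 tested members rose and 9 fell, where 42% of all 21761 genes tested rose and 39.1% fell (81% in all). From D4 to D8, 22 rose and 23 fell, where 35% of all genes rose and 33.8% fell (68.8% in all). In KO cells 36 rose and 7 fell to D4, beside 44.1% and 38.5% of all genes (82.6% in all). From D4 to D8, 17 rose and 27 fell under the KO label, beside 36.1% and 38.9% of all genes (75% in all). The counts of all 57 members together came to 2058 to 2113 CPM in WT and 1953 to 2071 CPM in KO at D0, to 2360 to 2495 CPM against 3808 to 3993 CPM at D4, and to 1695 to 1898 CPM against 2598 to 2689 CPM at D8. The 2 genotypes overlapped in this sum at D0 and did not at D4 or D8, when the libraries labelled KO held more. A few abundant members carried most of the difference at D4, where 8 members were called lower in KO. Means in WT and KO were 236.4 and 713.6 CPM for FZD5, 616.3 and 1025 CPM for SFRP1 and 199.3 and 415.6 CPM for LGR4.

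**Figure D1:**
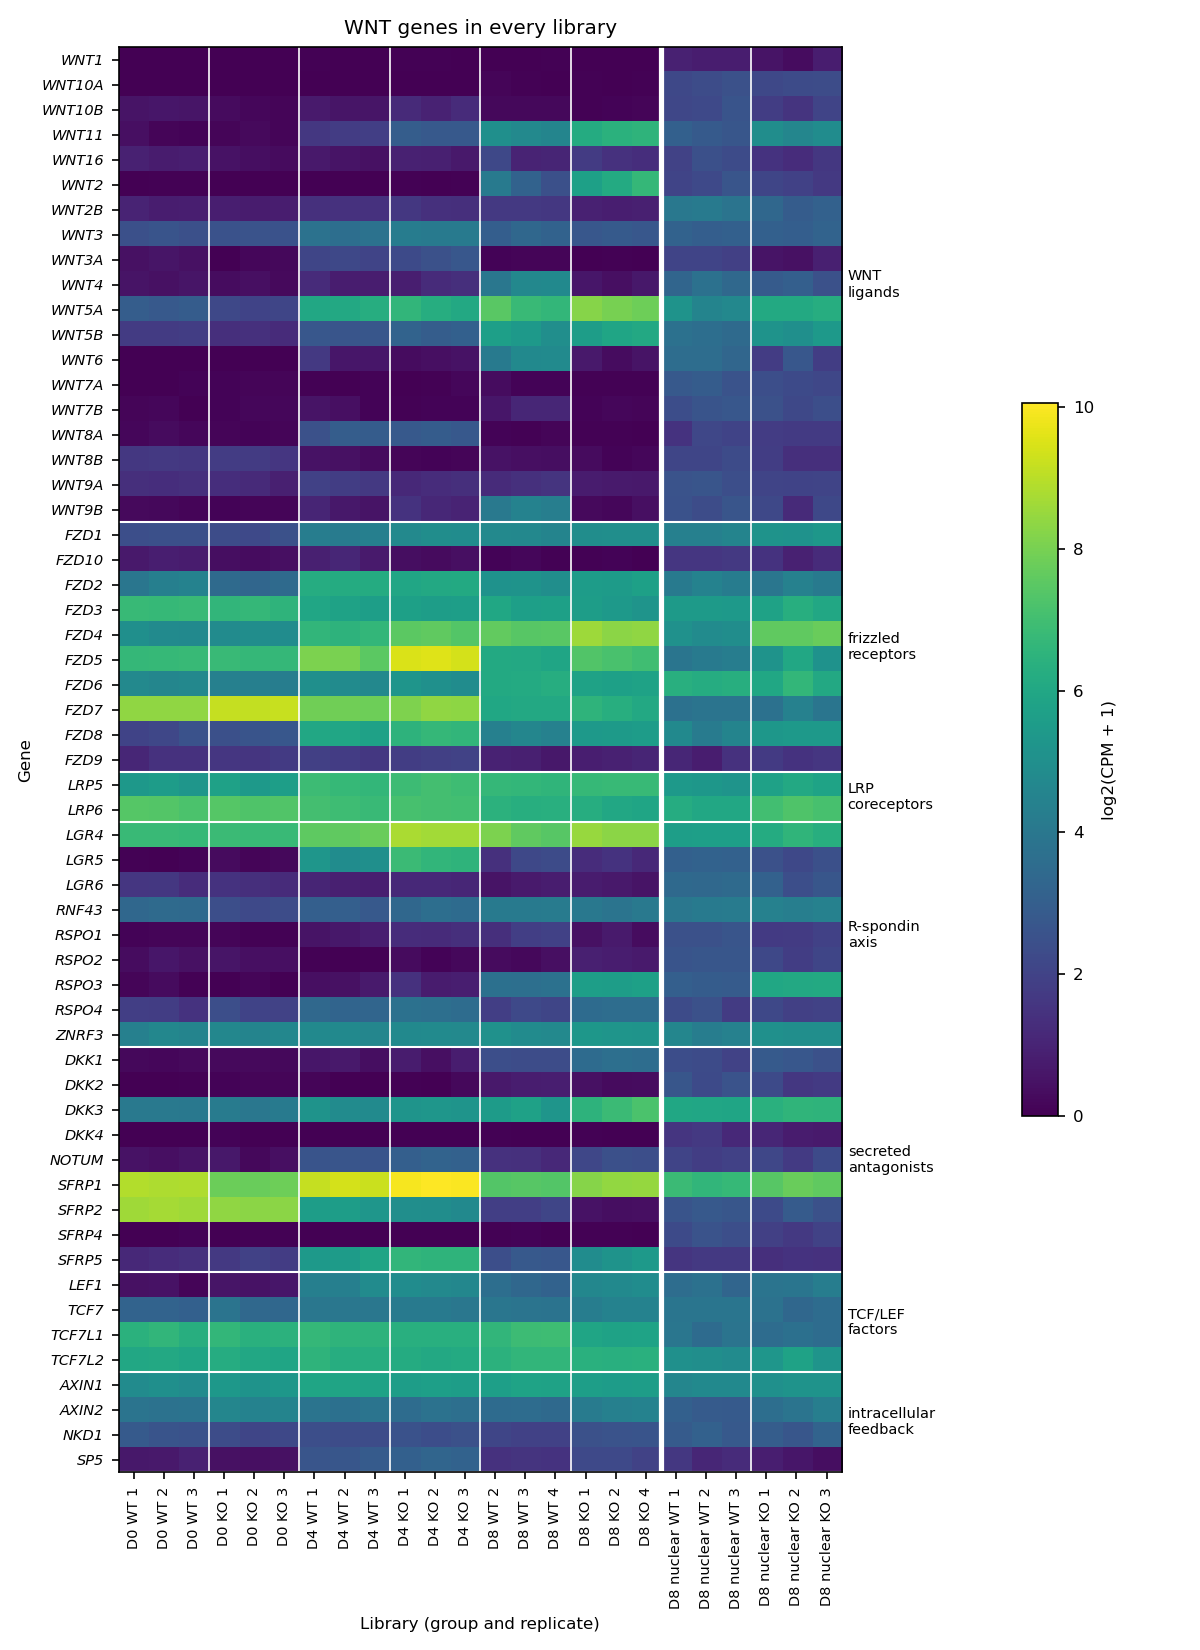
Level of each member in every library, as log2(CPM + 1) in colour, with 1 row per member grouped by role and 1 column per library grouped by RNA source, day and genotype. Ligands such as WNT2, WNT4, WNT6 and WNT9B are near the bottom of the scale at D0 and D4 and appear at D8, the last 3 in WT columns, while SFRP2 fades from D0 to D8.

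Against WT, KO cells differed in 21 members at D0, 30 at D4 and 45 at D8. At D0, 8 members were higher and 13 lower in KO (40.4% of those tested), beside 42.3% of all genes called (21.4% higher and 20.9% lower), so the members' share at D0 is near the background. At D4, 22 were higher and 8 lower (57.7%), beside 28.4% of all genes (16.3% and 12%). At D8, with the direction taken from the labels, 25 were higher and 20 lower in KO (86.5%), beside 55.6% of all genes (29.4% and 26.2%). The median log2 fold change of the tested members was -0.13 at D0, 0.36 at D4 and 0.19 at D8, beside -0.01, 0.00 and 0.01 over all genes. Without regard to direction the median log2 change at D8 was 1.03 for the tested members and 0.39 for all genes. In nuclear RNA 20 members were higher and 19 lower (69.6% of 56), beside 64% of 30481 genes (31.2% and 32.8%). Leaving out WT replicate 1 at D4 brought the members called lower there from 8 to 5.

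**Figure D2:**
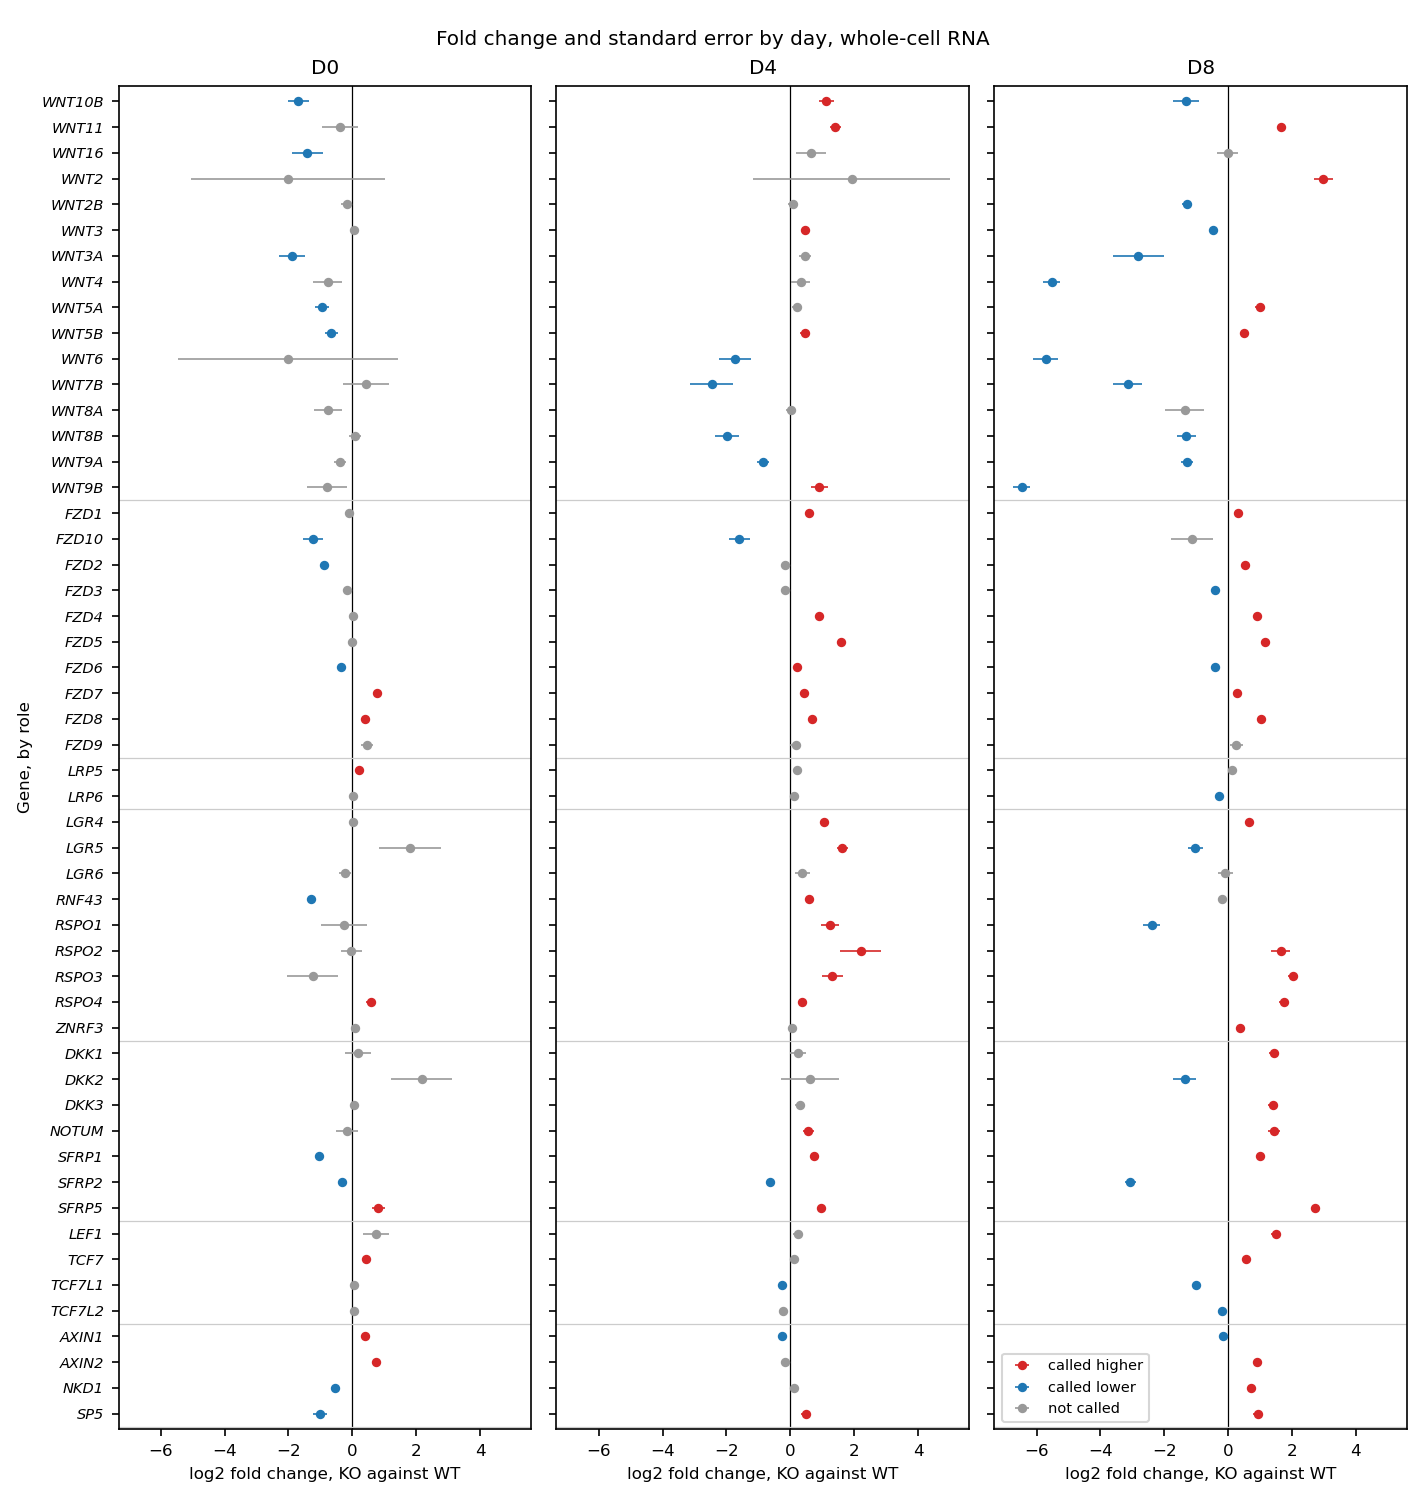
Log2 fold change, KO against WT, of each tested member at D0, D4 and D8 of whole-cell RNA, with bars of 1 standard error, red where called higher, blue where called lower and grey where not called at an edgeR adjusted p under 0.05. Members are grouped by role and separated by lines. WNT4, WNT6 and WNT9B lie below -5 at D8, and WNT2, SFRP5 and RSPO3 lie above 2.

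WNT ligands were scarce in pluripotent cells, and the ligands in use changed with the day. Levels of different genes are compared per kilobase of exon, as mean ± SD of the CPM per kilobase over 3 libraries. At D0 in WT the highest were WNT3 (1.09 ± 0.0644), WNT8B (1.01 ± 0.0295) and WNT5A (0.87 ± 0.0645), with no overlap between neighbours in that order. At D4 in WT WNT5A, a ligand that mostly signals without beta-catenin, led with 9.31 ± 0.866, followed by WNT8A (2.87 ± 0.58) and WNT3 (2.84 ± 0.179), whose ranges overlapped. At D8 in WT the order began with WNT5A (17.7 ± 5.73), WNT6 (13.6 ± 3.58), WNT11 (11 ± 1.88) and WNT5B (9.42 ± 2.36). It went on with WNT9B (5.6 ± 0.826), WNT4 (4.88 ± 1.36) and WNT2 (2.13 ± 1.32). Each neighbour in that order overlapped the next except WNT5B and WNT9B. In the libraries labelled KO at D8 the order was WNT5A (35.1 ± 4.86) and WNT11 (34.7 ± 4.05), with overlapping ranges, then WNT2 (16.7 ± 5.8) and WNT5B (13.3 ± 2.16), also overlapping, and WNT6 stood at 0.258 ± 0.106.

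Among the 16 ligands tested, 12 rose and 1 fell in WT from D0 to D4, and 10 rose and 5 fell from D4 to D8. Of all genes, 42% rose and 39.1% fell in the first step, and 35% rose and 33.8% fell in the second. WNT8A, a ligand of the early primitive streak, went from 0.13, 0.236 and 0.127 CPM in WT at D0 to 4.61, 6.84 and 6.55 CPM at D4 and back to 0.0624, 0.038 and 0.102 CPM at D8. It rose by a log2 fold change of 5.20 ± 0.24 (SE) and fell again by D8 with a change of -6.38 ± 0.25 (edgeR adjusted p = 3.4e-15), and all D4 libraries were above all others. WNT3A, another ligand of the streak and tail bud, had a mean of 0.401 CPM at D0, 3.36 CPM at D4 and 0.0852 CPM at D8 in WT, and its log2 change from D4 to D8 was -5.26 ± 0.29. WNT8B, a ligand known from the forebrain, was the 1 ligand that fell by D4, with a log2 change of -2.64 ± 0.23 in WT. At D4 neither WNT8A nor WNT3A was called between genotypes, with log2 fold changes of 0.03 and 0.47 in KO.

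WNT2, WNT11, WNT5A and WNT5B were the 4 ligands higher in the libraries labelled KO at D8. WNT2, a ligand made by the early heart field and its neighbouring mesoderm, had 1 count over the 3 WT libraries and 5 over the 3 KO libraries at D4. At D8 it stood at 16.1, 8.04 and 4.52 CPM in WT and 52.1, 69.9 and 103 CPM in the libraries labelled KO, so that the highest WT library was below the lowest KO library although WT replicate 2 was well above the other 2. The D8 to D4 ratio of its summed counts was scaled to the TMM-adjusted library totals. It was 1320 in WT (95% counting interval 237 to 52100) and 2280 in KO (976 to 7020), intervals that cover counting error only. At D8 its log2 fold change in the libraries labelled KO was 2.98 ± 0.29 (SE, n = 3 per group; edgeR adjusted p = 3.3e-08). In nuclear RNA WNT2 was low, at 3.14, 3.7 and 5.23 CPM in WT and 3.34, 2.88 and 2.19 CPM under the KO label, and was not called.

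WNT11, which acts largely without beta-catenin and is used in heart morphogenesis, was higher in KO from D4 on. Its levels at D4 were 2.06, 2.41 and 2.66 CPM in WT and 6.88, 5.95 and 6.08 CPM in KO, and at D8 31.5, 25.4 and 22.7 CPM against 72.8, 84.9 and 92.1 CPM, with no overlap on either day. The log2 fold changes were 1.42 ± 0.17 at D4 and 1.65 ± 0.13 at D8 (edgeR adjusted p = 2e-06 and 1.4e-09). Nuclear RNA differed in the same direction, with 7.5, 6.29 and 5.44 CPM in WT and 29.5, 23.7 and 28.3 CPM under the KO label (log2 fold change 2.08 ± 0.16). WNT5A was lower in KO at D0, where it stood at 6.85, 5.91 and 6.54 CPM in WT and 3.54, 3.12 and 3.33 CPM in KO (log2 fold change -0.95 ± 0.22, edgeR adjusted p = 0.0012). By D4 it had risen in both genotypes and was not called between them (edgeR adjusted p = 0.38). At D8 it was 179, 111 and 101 CPM in WT and 299, 251 and 229 CPM in the libraries labelled KO, with every one of the latter above every WT library (log2 fold change 0.99 ± 0.16). WNT5B, its close relative, was lower in KO at D0 (2.33, 2.31 and 2.54 CPM in WT and 1.55, 1.66 and 1.36 CPM in KO) and higher at D4 (log2 fold change 0.47 ± 0.16). The D0 call was lost without KO replicate 3 (log2 fold change -0.57, edgeR adjusted p = 0.063). At D8 the 2 labels overlapped for WNT5B, at 50.4, 41.2 and 30.1 CPM and 47.2, 58.5 and 65.7 CPM, and in nuclear RNA they did not, at 12.7, 11.5 and 10.1 CPM and 35.1, 31.6 and 40.9 CPM (log2 fold change 1.65 ± 0.14).

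WNT4, WNT6 and WNT9B came on in WT between D4 and D8 and were under 1 CPM in every whole-cell library labelled KO at D8. WNT9B, a ligand made by epithelia and known from kidney formation, was at 1.05, 0.582 and 0.432 CPM in WT and 1.75, 1.19 and 1.0 CPM in KO at D4, and at 15.7, 21.2 and 18.8 CPM in WT and 0.186, 0.13 and 0.321 CPM under the KO label at D8. WNT6, which is made by surface ectoderm, was at 16.1, 26.3 and 26.9 CPM in WT and 0.618, 0.259 and 0.439 CPM at D8. WNT4, another ligand of epithelia and of kidney formation, was at 15.1, 24.8 and 26.5 CPM in WT and 0.526, 0.345 and 0.574 CPM. For all 3, every WT library at D8 was above every library labelled KO, and the log2 fold changes were -6.47 ± 0.27, -5.72 ± 0.38 and -5.53 ± 0.27 for WNT9B, WNT6 and WNT4. WNT6 was already lower in KO at D4, where WT replicate 1 stood alone at the top of 2.21, 0.541 and 0.528 CPM and KO held 0.275, 0.343 and 0.414 CPM (log2 fold change -1.73 ± 0.51, edgeR adjusted p = 0.015). Nuclear differences of the 3 were smaller, with log2 fold changes of -0.79 ± 0.28, -1.49 ± 0.23 and -0.75 ± 0.19 for WNT9B, WNT6 and WNT4.

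Markers of surface ectoderm and amnion moved with these 3 ligands. Their summed level at D8 lay at 612 to 1109 CPM in WT and at 69.5 to 85.2 CPM in the libraries labelled KO. All 8 of 8 markers, TFAP2A, TFAP2B, TFAP2C, TP63, GATA3, KRT7, DLX5 and GABRP, were lower under the KO label. In nuclear RNA the sum lay at 509 to 810.4 CPM in WT and at 163 to 419.5 CPM under the KO label, with 7 of 8 lower. At D4 the sum was 103 to 144 CPM in WT and 150.3 to 155 CPM in KO, whereas 4 of the 8 markers were lower in KO, GATA3, which held most of the sum, was higher and the median log2 fold change of the list was -1.29. Within WT at D8, WNT4, WNT6 and WNT9B were lower in replicate 2 than in the other 2 libraries. Over all genes, WT replicates 2 and 4 were the furthest apart, with a chi-square per degree of freedom of 62.19. It was 28.1 for replicates 2 and 3 and 20.71 for replicates 3 and 4. The part of other cell types in the ligand differences was not tested.

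The other ligands called at D8 were all lower under the KO label, at group means under 10 CPM. WNT9A was at 2.81, 2.54 and 2.21 CPM in WT and 1.26, 1.43 and 1.53 CPM in KO at D4 and at 1.35, 1.66 and 1.84 CPM and 0.711, 0.662 and 0.591 CPM at D8, with no overlap on either day (log2 fold changes -0.85 ± 0.18 and -1.30 ± 0.19). WNT2B was not called at D0 or D4 and stood at 2.16, 2.14 and 2.07 CPM in WT and 0.912, 0.82 and 0.861 CPM under the KO label at D8 (log2 fold change -1.29 ± 0.15). Counting all that were tested, 5 of 16 ligands were lower and 0 higher in KO at D0, 5 were higher and 4 lower at D4, and 4 were higher and 10 lower at D8. Of all genes 20.9% were lower at D0, 16.3% higher and 12% lower at D4, and 29.4% higher and 26.2% lower at D8. The edgeR count of 0 ligands higher at D0 was also 0 at an unadjusted p under 0.05.

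**Figure D3:**
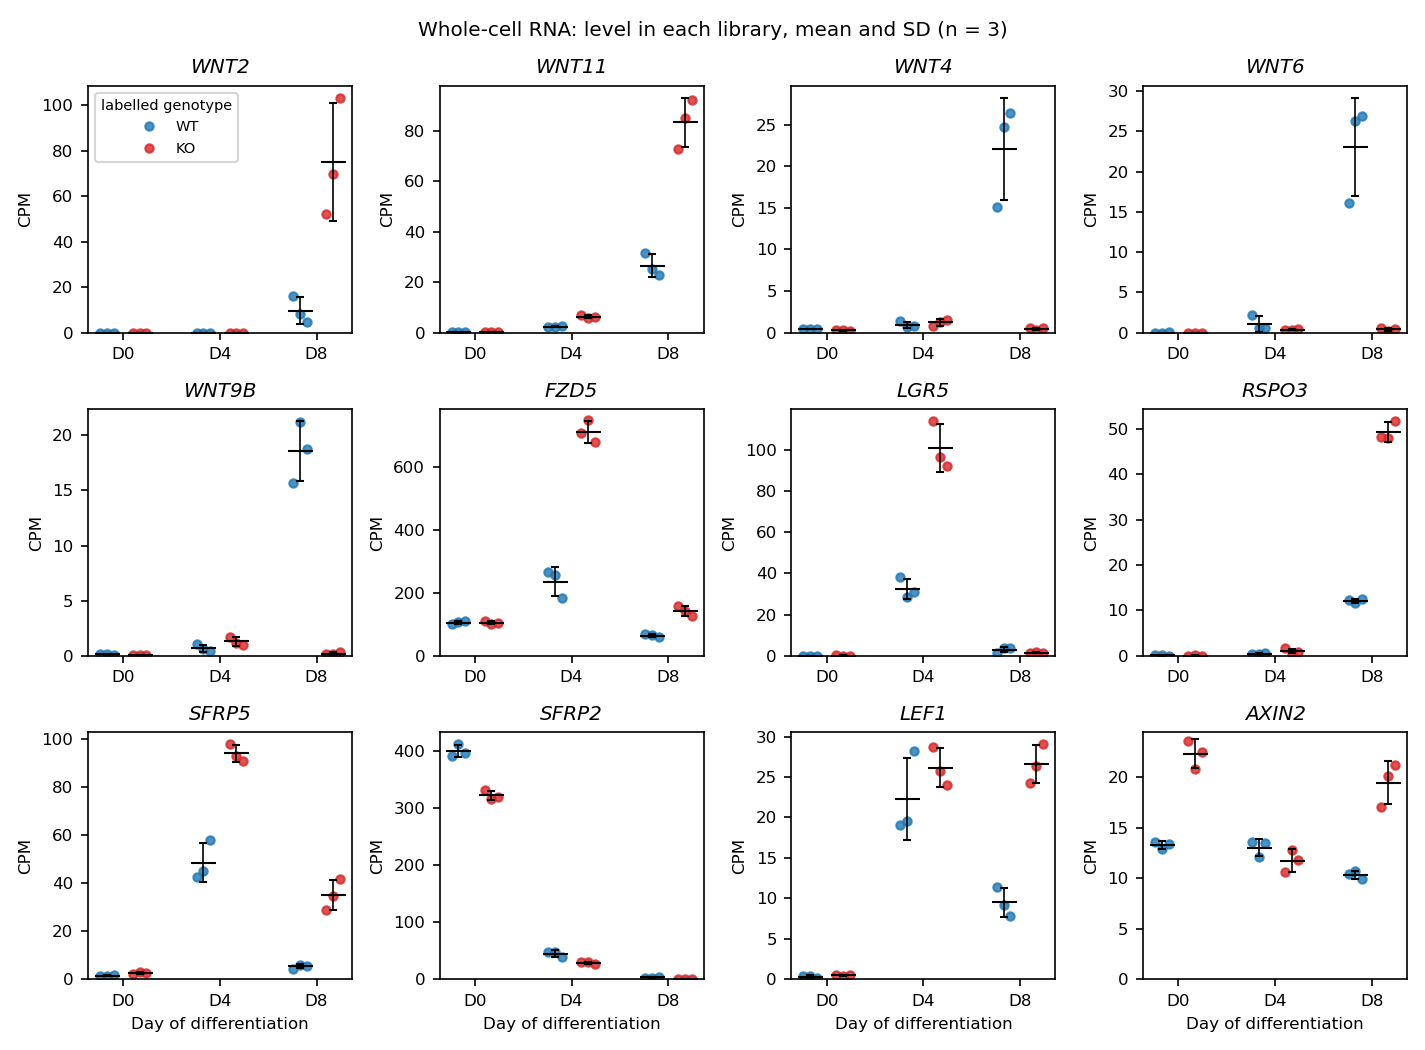
Level in CPM of 12 members at D0, D4 and D8 of whole-cell RNA, 1 point per library with the mean and SD (n = 3) as black bars, WT in blue and KO in red, each panel on its own linear axis from 0. WNT4, WNT6 and WNT9B part at D8 with WT above, whereas LGR5 and FZD5 part at D4 with KO above.

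Frizzled receptors were among the most abundant members, and 6 of 10 were higher in KO at D4. Per kilobase of exon, FZD7 stood at 86.7 ± 0.464 CPM in WT at D0, ahead of FZD5 at 15.8 ± 0.553. In KO at D4 their order was reversed, with FZD5 at 106 ± 5.25 and FZD7 at 80.7 ± 7.4. FZD7, the main frizzled of human pluripotent cells, was higher in KO at D0, at 333, 334 and 337 CPM in WT and 576, 559.5 and 594 CPM in KO, without overlap (log2 fold change 0.79 ± 0.09, edgeR adjusted p = 3.9e-07). FZD2 was lower in KO at D0 (14.6, 19.1 and 20.8 CPM in WT, 10.3, 9.0 and 10.1 CPM in KO, log2 fold change -0.89 ± 0.10), and it was higher under the KO label at D8 (log2 fold change 0.52 ± 0.09). In WT from D0 to D4, FZD8 rose by a log2 fold change of 3.97 ± 0.13, and FZD3 and FZD7 fell by changes of -1.0 ± 0.10 and -0.53 ± 0.09.

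Among the more abundant frizzled genes FZD5 and FZD4 differed at D4 and D8, as did FZD7 and FZD8. FZD7 was higher in KO at D4 (log2 fold change 0.43 ± 0.09). Under the KO label at D8 it was higher by 0.27 ± 0.09, with overlapping groups and no call when scaled by total counts. FZD5 was not called at D0, with 102, 106 and 109.7 CPM in WT and 112, 102 and 103 CPM in KO. At D4 it rose to 268, 258 and 183 CPM in WT and 709, 751 and 681 CPM in KO, and at D8 it was 68.6, 65.7 and 59.8 CPM against 159, 142 and 126 CPM. The genotypes did not overlap at D4 or D8, with log2 fold changes of 1.59 ± 0.11 and 1.14 ± 0.11 (edgeR adjusted p = 6.8e-10 and 1.6e-08), and the change of the KO effect from D0 to D4 was itself called at 1.60 ± 0.15. FZD4, a receptor of endothelial cells among others, was at 98.1, 89.8 and 100.1 CPM in WT and 184, 193 and 164 CPM in KO at D4, and at 196, 174 and 180.3 CPM and 381, 317 and 337 CPM at D8. Its log2 fold changes were 0.91 ± 0.08 and 0.91 ± 0.08, and in nuclear RNA 2.73 ± 0.15, where it stood at 33.2, 27.7 and 29.8 CPM in WT and 194, 194 and 215 CPM under the KO label. The summed endothelial markers were higher in KO as well. Their sum lay at 201 to 236 CPM in WT and at 437 to 491 CPM in KO at D4, with 4 of 5 tested markers higher, and at 292 to 353 CPM and 627 to 686 CPM at D8, with 3 of 5 higher. In nuclear RNA the sum lay at 63.8 to 72.7 CPM in WT and 438 to 484 CPM under the KO label, whereas 4 of the 5 markers were lower, KDR, which held most of the sum, was higher and the median log2 fold change of the list was -0.85. Endoderm markers also moved, at 87.6 to 97.7 CPM in WT and at 222 to 240.2 CPM in KO at D4, with 6 of 7 higher. Their part in the receptor differences was not tested.

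Of the remaining receptors, FZD6 was lower in KO at D0 and D8 by log2 changes of -0.36 and -0.41. FZD8 was higher in KO by 0.40 at D0, where the groups overlapped, by 0.69 at D4 and, under the KO label, by 1.03 at D8. FZD10 had little RNA and was lower in KO at D0, at 0.592, 0.814 and 0.689 CPM in WT and 0.29, 0.277 and 0.317 CPM in KO (log2 fold change -1.23 ± 0.33). It was also lower at D4, at 0.825, 1.1 and 0.672 CPM and 0.292, 0.242 and 0.327 CPM (-1.60 ± 0.33), without overlap on either day. Over the family, 2 of 10 frizzled genes were higher and 3 lower at D0, 6 higher and 1 lower at D4, and 6 higher and 2 lower at D8. Of all genes, 21.4%, 16.3% and 29.4% were higher and 20.9%, 12% and 26.2% lower on these days. These are the shares to read the whole-cell counts of each family and each marker list against. The coreceptor LRP6 was level at D0 and D4 within the spread of the libraries and slightly lower under the KO label at D8, with 86.8, 78.7 and 80 CPM in WT and 76.8, 65.2 and 59.8 CPM (log2 fold change -0.28 ± 0.08). In nuclear RNA LRP6 went the other way, at 73, 64.5 and 64.1 CPM in WT and 128, 155 and 141 CPM under the KO label (log2 fold change 1.07 ± 0.14, edgeR adjusted p = 1.3e-07). The difference between the 2 RNA sources was not tested, since the tables were counted and normalised apart.

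The R-spondin axis sets how many receptors stay on the cell surface: R-spondins bind LGR4 to LGR6 and block RNF43 and ZNRF3, ubiquitin ligases that remove frizzled proteins. At D4, 7 of the 9 genes of the axis were higher in KO, beside 16.3% of all genes, and 0 were lower, also at an unadjusted p under 0.05. LGR5, a receptor that is itself a target of the pathway, was under 1 CPM in every D0 library. At D4 it stood at 38.1, 28.6 and 31.2 CPM in WT and 114, 96.7 and 92 CPM in KO, so the lowest KO library was far above the highest WT library. Its log2 fold change was 1.63 ± 0.17 (edgeR adjusted p = 3.1e-07). By D8 LGR5 had fallen to 1.6, 3.59 and 3.9 CPM in WT and 1.42, 1.78 and 1.25 CPM in the libraries labelled KO, which overlapped at WT replicate 2 (log2 fold change -1.03 ± 0.24, edgeR adjusted p = 0.00094). LGR4, a receptor for the same ligands, was at 191, 193 and 215 CPM in WT and 440.4, 403 and 403 CPM in KO at D4, a log2 fold change of 1.06 ± 0.11 with no overlap, and remained higher at D8 (0.66). LGR6 fell in WT from D0 to D4 by a log2 change of -1.0 ± 0.22 and was not called between genotypes in whole cells.

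RSPO3, the R-spondin of heart and vessel formation, was the member with the largest nuclear difference. It rose in WT from a mean of 0.447 CPM at D4 to 12.2, 11.6 and 12.4 CPM at D8, and the libraries labelled KO held 48.1, 48 and 51.7 CPM. The D8 groups were far apart and tight, with a log2 fold change of 2.03 ± 0.16 (edgeR adjusted p = 1.7e-09). In nuclear RNA it was at 7.28, 6.53 and 6.38 CPM in WT and 62.2, 66.4 and 67.7 CPM under the KO label (log2 fold change 3.28 ± 0.15). RSPO1 changed direction between days, from 0.45, 0.582 and 0.816 CPM in WT and 1.39, 1.37 and 1.57 CPM in KO at D4 to 1.55, 2.6 and 2.82 CPM and 0.371, 0.676 and 0.253 CPM at D8, with no overlap on either day (log2 fold changes 1.25 ± 0.29 and -2.40 ± 0.27). RSPO4 was higher in KO at D0, at 2.65, 2.51 and 1.79 CPM in WT and 4.41, 3.1 and 2.96 CPM in KO, but the call was lost without KO replicate 1 (log2 fold change 0.39, edgeR adjusted p = 0.061). At D8 RSPO4 stood at 2.67, 3.66 and 3.28 CPM in WT and 10.3, 11 and 11 CPM under the KO label (log2 fold change 1.74 ± 0.14), well clear of each other.

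RNF43, a ligase induced by the pathway that it restrains, was lower in KO at D0 and higher at D4. It was at 9.22, 10.2 and 9.93 CPM in WT and 4.33, 3.67 and 4.07 CPM in KO at D0, and at 7.35, 7.15 and 6.05 CPM and 9.32, 11.3 and 10.3 CPM at D4, without overlap on either day. The log2 fold changes were -1.28 ± 0.10 and 0.59 ± 0.10 (edgeR adjusted p = 5.7e-09 and 0.00011), and at D8 it was not called (-0.19). ZNRF3, its homologue, was not called at D0 or D4 and was higher under the KO label at D8, at 32.8, 27.6 and 25.7 CPM in WT and 38.5, 36.8 and 35.5 CPM (log2 fold change 0.36 ± 0.08).

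Secreted antagonists bind WNT ligands (SFRP), close the LRP coreceptors (as DKK1 does) or strip the lipid from the ligand (NOTUM). SFRP2 and SFRP1 were the members with most RNA per kilobase at D0 in WT, at 197 ± 5.37 and 97.1 ± 2.13 CPM per kilobase, and their ranges did not overlap. SFRP1 changed sides: at D0 it was at 471, 451 and 464 CPM in WT and 222, 218 and 226 CPM in KO, and at D4 at 579, 669.8 and 601 CPM and 979, 1064 and 1032 CPM. At D8 it stood at 164, 173 and 165 CPM in WT and 296, 343 and 354 CPM under the KO label. The groups did not overlap on any day, and the log2 fold changes were -1.06 ± 0.07, 0.73 ± 0.07 and 0.99 ± 0.07 at D0, D4 and D8 (edgeR adjusted p = 2.5e-10, 4.8e-08 and 1.7e-10). SFRP5, an antagonist of the foregut and of the cardiac progenitor region, was higher in KO on all 3 days. Its levels were 1.22, 1.44 and 1.6 CPM in WT and 2.19, 2.8 and 2.49 CPM in KO at D0. They were 42.6, 45.3 and 57.9 CPM and 98, 93.3 and 91 CPM at D4, and 4.38, 5.92 and 5.57 CPM and 29, 34.7 and 41.6 CPM at D8. The log2 fold changes were 0.82 ± 0.20, 0.96 ± 0.12 and 2.73 ± 0.14, with no overlap on any day, whereas in nuclear RNA SFRP5 was not called (-0.32).

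SFRP2 was the antagonist that was lower in KO on every day. It fell in WT from 390.4, 411 and 396 CPM at D0 to 48.1, 47.6 and 38 CPM at D4 and 2.66, 2.69 and 3.34 CPM at D8. In KO it fell from 331, 316 and 318 CPM to 30, 29.3 and 26.5 CPM and, under the KO label, to 0.402, 0.302 and 0.338 CPM. The log2 fold changes were -0.31 ± 0.08, -0.64 ± 0.08 and -3.06 ± 0.17, with no overlap on any day. DKK1, an inhibitor of LRP5 and LRP6 and a target of the pathway, was under 1 CPM on average until D4 and stood at 4.33, 4.04 and 4.07 CPM in WT and 10.6, 11.8 and 11.2 CPM under the KO label at D8 (log2 fold change 1.43 ± 0.15). NOTUM, a secreted carboxylesterase that is also a target, was at 5.18, 5.3 and 5.06 CPM in WT and 7.24, 8.09 and 7.68 CPM in KO at D4 (log2 fold change 0.56 ± 0.17, edgeR adjusted p = 0.017, and 0.064 without KO replicate 2). At D8 NOTUM stood at 1.74, 1.61 and 1.25 CPM in WT and 3.4, 4.55 and 4.41 CPM under the KO label (log2 fold change 1.43 ± 0.18), without overlap. Over the 7 tested genes grouped as antagonists by family, 1 was higher and 2 lower in KO at D0, 3 higher and 1 lower at D4, and 5 higher and 2 lower at D8. The group includes DKK3 by its name alone, and DKK3 was among those higher at D8, with means of 44.74 CPM in WT and 117.1 CPM under the KO label.

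Of the TCF/LEF factors, LEF1 is a target as well as an effector. It rose in WT from 0.37, 0.407 and 0.0906 CPM at D0 to 19.1, 19.5 and 28.2 CPM at D4 and was at 28.7, 25.8 and 24 CPM in KO at D4, overlapping and not called. Without WT replicate 3, the highest WT library, LEF1 was called higher in KO at D4 (log2 fold change 0.44, edgeR adjusted p = 0.042). At D8 it stood at 11.4, 9.22 and 7.84 CPM in WT and 24.3, 26.4 and 29.1 CPM under the KO label (log2 fold change 1.49 ± 0.16, edgeR adjusted p = 1e-07), without overlap. TCF7L1, the repressive TCF of pluripotent cells, was at 98.7, 119 and 122 CPM in WT and 58.9, 54.7 and 55.6 CPM under the KO label at D8, again without overlap (log2 fold change -1.0 ± 0.09). Pluripotency markers were also lower at D8, as TCF7L1 and SFRP2 were, with 5 of 6 lower, a median log2 fold change of -1.28 and a sum of 1322 to 1744 CPM in WT and 469 to 566 CPM under the KO label. Their part in these differences was not tested. The D4 call of TCF7L1 (log2 fold change -0.25, edgeR adjusted p = 0.036) was not firm. It was lost when any of WT replicates 1 and 2 or KO replicates 1, 2 and 3 was left out (edgeR adjusted p from 0.064 to 0.16). TCF7 was higher in KO at D0, at 8.22, 8.31 and 7.56 CPM in WT and 13.5, 9.67 and 9.28 CPM in KO (log2 fold change 0.43 ± 0.11), and at D8, at 14.3, 13.6 and 13.2 CPM and 18.5, 21 and 21.1 CPM (log2 fold change 0.56 ± 0.11). In nuclear RNA TCF7 lay the other way without overlap, at 1.382 to 1.391 CPM per kilobase in WT and 0.92 to 1.295 under the KO label.

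The feedback genes inside the cell did not move as a block. AXIN2, the most widely used readout of beta-catenin activity, was at 13.6, 12.9 and 13.4 CPM in WT and 23.6, 20.8 and 22.5 CPM in KO at D0, without overlap (log2 fold change 0.75 ± 0.09, edgeR adjusted p = 1.2e-06). At D4 it stood at 13.6, 12 and 13.4 CPM in WT and 10.6, 12.8 and 11.8 CPM in KO, which overlapped, with no call (-0.15 ± 0.09). At D8 it was at 10.5, 10.7 and 9.88 CPM in WT and 17.1, 20.1 and 21.2 CPM under the KO label (log2 fold change 0.91 ± 0.09). In WT AXIN2 was not called between D0 and D4, whereas in KO it fell by D4 (log2 change -0.93 ± 0.09) and rose again by D8 (0.73 ± 0.09). Nuclear AXIN2 was also higher under the KO label, at 7.39, 6.41 and 6.17 CPM in WT and 11.6, 13.6 and 18.5 CPM (log2 fold change 1.13 ± 0.18).

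NKD1, a Dishevelled-binding inhibitor induced by the pathway, was at 6.13, 5.06 and 4.73 CPM in WT and 4.1, 3.25 and 3.49 CPM in KO at D0 and at 3.33, 2.82 and 2.83 CPM and 4.7, 4.89 and 5.17 CPM at D8. It was lower in KO at D0 (log2 fold change -0.56 ± 0.12) and higher under the KO label at D8 (0.72 ± 0.12), without overlap on either day. AXIN1, the constitutive scaffold, was higher in KO at D0 (28, 31.5 and 28 CPM in WT, 39.7, 35.3 and 39.4 CPM in KO, log2 fold change 0.39 ± 0.07) and lower at D4 (-0.25). Scaled by total counts in place of the trimmed mean of M values, the D4 difference was -0.17 and not called (edgeR adjusted p = 0.078).

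SP5, a repressor of the SP family that is a direct target of beta-catenin, is shown with the stretch before its transcription start. Of the members searched, SP5 held the most matches to the TCF/LEF site in the spellings CTTTGAT and CTTTGAA. Other spellings of the site were neither searched nor marked. The letters CTTTGAT and CTTTGAA, searched on both strands in the 250 bases before the start, occurred in 2.26% and 3.8% of 35116 promoters of the RefSeq table (GRCh38.p14). Among 47 promoters of 38 members, CTTTGAT was found in SP5 alone and CTTTGAA in SP5 and DKK1. The SP5 sequence lies at chr2:170715087-170715336 on the plus strand, and the DKK1 stretch at chr10:52314166-52314212 on the plus strand. Capitals mark the matches, which on the strand shown read TTCAAAG where CTTTGAA lies on the opposite strand.
SP5: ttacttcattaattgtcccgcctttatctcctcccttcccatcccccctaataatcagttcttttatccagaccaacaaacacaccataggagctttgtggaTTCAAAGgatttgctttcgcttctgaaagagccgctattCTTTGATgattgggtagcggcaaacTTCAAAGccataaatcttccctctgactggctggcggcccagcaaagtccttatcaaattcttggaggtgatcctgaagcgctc
DKK1: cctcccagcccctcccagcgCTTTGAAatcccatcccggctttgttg
Counted from the start, the matches begin at positions -148, -109 and -84 in SP5 and at -95 in DKK1. A match is a description of letters and not of binding. SP5 RNA was at 0.555, 0.621 and 0.906 CPM in WT and 0.352, 0.314 and 0.37 CPM in KO at D0. It was at 5.29, 5.53 and 6.4 CPM and 7.39, 8.75 and 7.87 CPM at D4, and at 1.7, 1.89 and 1.8 CPM and 3.62, 3.7 and 2.92 CPM at D8. It was thus lower in KO at D0 and higher at D4 and D8, with no overlap on any day and log2 fold changes of -1.01 ± 0.23, 0.48 ± 0.13 and 0.93 ± 0.14. The D4 call was at the threshold without KO replicate 2 (log2 fold change 0.41, edgeR adjusted p = 0.05).

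The KO effect itself changed between days for 27 of the 52 tested members from D0 to D4, 20 upward and 7 downward, where 20% of all genes changed upward and 19.1% downward (39.1% in all). From D4 to D8 it changed for 30 members, 13 upward and 17 downward, where 19.6% and 21.9% of all genes did (41.5% in all). The upward changes to D4 included SFRP1, whose effect moved by 1.79 ± 0.10 on the log2 scale, RNF43 by 1.87 ± 0.14 and FZD5 by 1.60 ± 0.15. Downward changes to D4 included AXIN2, whose effect moved by -0.90 ± 0.13, and AXIN1 by -0.64 ± 0.09. Later, the effect moved downward by -7.38 ± 0.39 for WNT9B and by -3.64 ± 0.40 for RSPO1 between D4 and D8, and upward by 1.77 ± 0.18 for SFRP5.

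Nuclear RNA at D8 gave a second view of the same labels. Ligands were mostly lower under the KO label (3 of 18 tested higher, 10 lower) beside 31.2% of all genes higher and 32.8% lower. Of 10 frizzled receptors 5 were higher, 5 were not called and 0 were lower, with 0 lower also at an unadjusted p under 0.05. Both LRP coreceptors were higher, LRP5 only without total-count scaling. The members highest in fold change, RSPO3, FZD4, WNT11, WNT5B, FZD5, WNT5A, AXIN2 and LRP6, ran from a log2 fold change of 1.07 ± 0.14 for LRP6 to 3.28 ± 0.15 for RSPO3. Among those lower were WNT3A, at 3.14, 3.21 and 2.72 CPM in WT and 0.445, 0.349 and 0.858 CPM under the KO label (log2 fold change -2.43 ± 0.38), and SP5, at 2.13, 1.11 and 1.36 CPM and 0.779, 0.524 and 0.286 CPM (-1.55 ± 0.43), which in whole cells was higher under the same label. The next lowest by fold change among those called were WNT6, DKK4, WNT16, WNT2B, RSPO1 and WNT8B, with log2 fold changes from -1.49 to -0.91. The call of DKK4 was lost without KO replicate 3 or WT replicates 1 or 2 (edgeR adjusted p from 0.056 to 0.069), and those of DKK4 and WNT8B with DESeq2 (adjusted p = 0.08 and 0.06). SP5 rested on 41 counts over the WT and 16 over the KO libraries.

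Genes with almost no RNA in whole cells were also mostly lower in nuclear RNA under the KO label. The 18343 genes under 0.1 CPM over the 6 whole-cell D8 libraries took 4.5% to 5.4% of the counts of the nuclear WT libraries and 2.21% to 3.3% of those labelled KO. Of the 8069 such genes that were tested in nuclear RNA, 205 were higher and 4536 lower under the KO label, with a median log2 fold change of -0.80. Of the 15 members under 1 CPM in whole cells at D8, 14 were tested in nuclear RNA, of which 0 were higher and 9 lower by edgeR, with a median of -0.71. The nearest to a call upward was FZD9 (0.72, unadjusted p = 0.05), named after its values were seen. The part of this background in the lower nuclear values of single members was not tested. Over all nuclear genes the median log2 fold change was -0.27 with the trimmed mean of M values, -0.72 when scaled by total counts and -0.14 with DESeq2, and the members called higher and lower numbered 20 and 19, 12 and 26, and 20 and 9 under the 3 scalings. Nuclear directions are therefore relative to the scaling. AXIN1, DKK1, DKK3, FZD3, LEF1, LRP5, TCF7L2 and ZNRF3 were called higher but not under total-count scaling, where AXIN1 changed sign to -0.05. LEF1 (log2 fold change 0.51) also lost its call without KO replicate 3 or WT replicate 3, at 0.37 and 0.33 (edgeR adjusted p = 0.081 and 0.13).

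**Figure D4:**
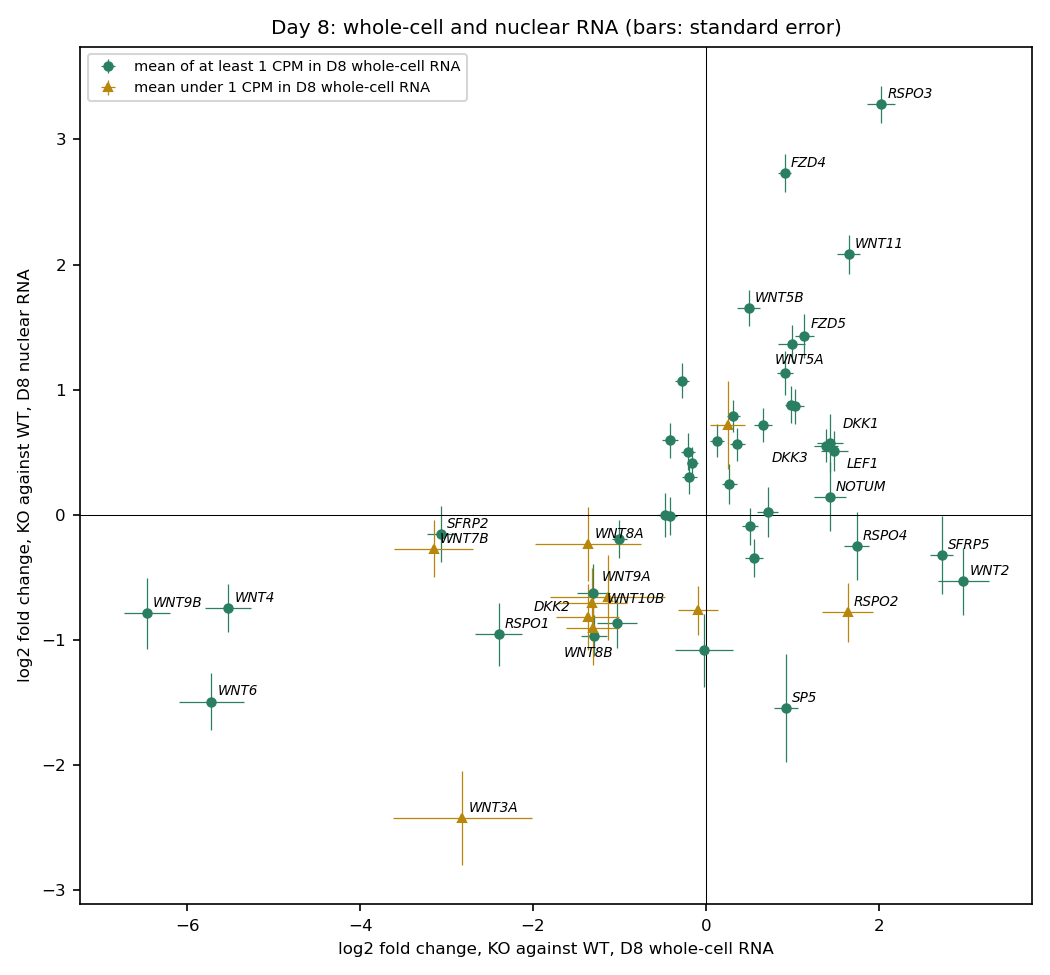
Log2 fold change, KO against WT labels, of the members tested in both RNA sources at D8, whole-cell RNA on the x axis and nuclear RNA on the y axis, 1 point per member with bars of 1 standard error and lines at 0. Circles mark members with a mean of at least 1 CPM in D8 whole-cell RNA and triangles those under it. RSPO3, FZD4 and WNT11 lie high on both axes, WNT4, WNT6 and WNT9B lie far to the left with smaller nuclear changes, and WNT2 and SFRP5 lie to the right near or below 0 in nuclear RNA.

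The rest of the pathway was read from 4 further lists, whose shares are set beside the 42.3%, 28.4%, 55.6% and 64% of all genes called at D0, D4, D8 and in nuclear RNA. Of 27 genes of WNT secretion and the intracellular core, 7 were higher and 7 lower in KO at D0, 4 and 5 at D4, 11 and 5 at D8 and 21 and 2 in nuclear RNA. These were 51.9%, 33.3%, 59.3% and 85.2% of the list, near the background at D4 and D8. CTNNB1, which encodes beta-catenin, was not called on any day in whole cells, with log2 fold changes of -0.08, 0.13 and -0.07. WLS, the carrier that takes ligands to the cell surface, was lower in KO at D0, at 9.76, 10.4 and 10.6 CPM in WT and 3.17, 3.76 and 3.03 CPM in KO (log2 fold change -1.62 ± 0.11), and higher at D4 (0.35 ± 0.08). The corepressor TLE2 was higher on all 3 days, most at D4 (log2 fold change 1.37 ± 0.10).

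Of 20 other secreted modulators and coreceptors, 11 were higher and 3 lower in KO at D0, 12 and 1 at D4, 10 and 4 at D8 and 6 and 4 in nuclear RNA. These were 70%, 65%, 70% and 50% of the list, under the background in nuclear RNA. FRZB, an SFRP-like antagonist, was at 10.5, 11.7 and 11.1 CPM in WT and 36.3, 40.3 and 39.2 CPM in KO at D4, with no overlap (log2 fold change 1.80 ± 0.12). CER1, a secreted inhibitor of WNT, BMP and NODAL made by anterior endoderm, was at 4.44, 5.97 and 3.89 CPM in WT and 25.5, 23.2 and 20.8 CPM in KO at D4 (2.28 ± 0.21), where endoderm markers were also higher. ROR2, a receptor for WNT5A, was higher under the KO label at D8 (log2 fold change 1.05 ± 0.07), as were APCDD1 (1.89 ± 0.17) and SOST (1.36 ± 0.12), both membrane or secreted inhibitors of the pathway. Of 10 genes of planar cell polarity, 3 were higher and 2 lower at D0, 3 and 4 at D4, 4 and 1 at D8 and 5 and 1 in nuclear RNA. These were 50%, 70%, 50% and 60% of the list, under the background at D8 and in nuclear RNA. PRICKLE1 showed the largest change of the list at D8 (1.35 ± 0.12).

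Of 14 tested genes induced by WNT in the primitive streak or other tissues, 5 were higher and 1 lower in KO at D0, 5 and 3 at D4, 1 and 7 at D8 and 4 and 4 in nuclear RNA. The share called was 42.9% at D0, 57.1% at D4, 57.1% at D8 and 66.7% of 12 in nuclear RNA, so beside all genes it was near the background at D0, D8 and in nuclear RNA. Among the members that the pathway induces, AXIN2, SP5, LEF1, NKD1, NOTUM, DKK1 and ZNRF3 were higher in whole cells under the KO label at D8. LGR5 was lower there and RNF43 was not called. Of those higher in whole cells, AXIN2 was also higher in nuclear RNA, and LEF1, DKK1 and ZNRF3 only without total-count scaling. In nuclear RNA SP5 was lower, and NKD1 and NOTUM had ranges that overlapped between the labels. MSX2, a homeobox gene induced by both WNT and BMP, was at 98.5, 120.2 and 126 CPM in WT and 34.2, 31.6 and 40.9 CPM at D8 (log2 fold change -1.69 ± 0.12), MSX1 was lower as well (-2.23 ± 0.21), and MYC was lower (-1.17 ± 0.12). EOMES, a T-box factor of the streak, was the 1 gene of the list that was higher at D8 (2.47 ± 0.28) and was also higher at D4, at 30, 42.9 and 40.9 CPM in WT and 64.5, 62.3 and 65.7 CPM in KO.

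TCF7 and TCF7L2 held all the member events called in the authors' deposited tables of skipped exons. The tables give an inclusion level for each of 3 libraries in each of 2 arms, and they do not name the arms, so differences are given as second minus first. An event was called at an FDR of the authors under 0.05 with a difference of at least 0.1 and at least 10 junction reads per library on average in each arm. Among the members with enough reads, 3 of 73 events in 18 genes were called at D0 (4.11%, beside 2.37% of all events), 3 of 79 at D4 (3.8%, beside 1.1%), 1 of 109 at D8 (0.917%, beside 2.23%) and 0 of 32 in 293T cells, a human embryonic kidney line given QKI or control siRNA (beside 0.451%), where the largest difference was 0.165.

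TCF7 and TCF7L2 each have an alternative exon of 73 bases near the end of the coding sequence that belongs to the long E-tail forms, which carry a second DNA-binding element, the C-clamp. The exons are shown because 4 of the 7 called events test them, and capitals mark the bases that the 2 share at the same position, 55 of 73 (75.3%). Sequences are from GRCh38, plus strand, with exons matched to the deposited hg19 events by their length and by that of both flanking introns, at chr5:134144797-134144869 for TCF7 and chr10:113159920-113159992 for TCF7L2.
TCF7: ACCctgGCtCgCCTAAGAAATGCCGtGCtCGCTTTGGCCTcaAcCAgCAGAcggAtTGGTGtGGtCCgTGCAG
TCF7L2: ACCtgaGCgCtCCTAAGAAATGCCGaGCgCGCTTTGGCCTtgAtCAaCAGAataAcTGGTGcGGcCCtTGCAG
The 51-base exon of TCF7L2, upstream of it at chr10:113158667-113158717, is shown in lower case. An event of it was called at D4 and another, with a different downstream exon, at D8.
TCF7L2 51-base exon: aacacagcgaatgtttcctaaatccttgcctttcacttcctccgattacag

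At D0 the 73-base exon of TCF7 (hg19 chr5:133480488-133480560) had inclusion levels of 0.688, 0.627 and 0.91 in the first arm and 0.207, 0.412 and 0.357 in the second, when joined to the exon starting at 133481915. The arms did not overlap, and in the authors' deposited table the difference was -0.416 with an FDR of 6.8e-05, from 93 inclusion and 20 skipping reads in the first arm and 57 and 82 in the second. Joined to the exon starting at 133481892, the same exon had levels of 1, 0.851 and 1 in the first arm and 0.702, 0.696 and 0.729 in the second, a difference of -0.241 with an FDR of 0.00067 in the authors' deposited table. These 2 events share reads and are not independent. The first of them was not called at D4 (0.853, 0.877 and 0.924 against 0.679, 0.853 and 0.748) or at D8, where all 6 libraries of the authors' deposited table lay between 0.933 and 0.981. The 69-base exon of TCF7L2 (hg19 chr10:114724315-114724383) moved the other way at D0, from 0.24, 0.23 and 0.186 in the first arm to 0.303, 0.347 and 0.353 in the second (difference 0.116, FDR 0.0011 in the authors' deposited table). At D8 it lay the other way round, at 0.238, 0.273 and 0.316 against 0.184, 0.188 and 0.165 in the authors' deposited table, a difference of -0.097 that did not reach 0.1 (FDR 8.3e-05).

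At D4 the called events were all in the 3′ part of TCF7L2. Its 73-base exon (hg19 chr10:114919679-114919751), joined to the exon starting at 114920378, had levels of 0.783, 0.849 and 0.722 in the first arm and 0.595, 0.295 and 0.52 in the second, a difference of -0.315 with an FDR of 0.012 in the authors' deposited table. Joined to the exon starting at 114925314 it had 0.416, 0.41 and 0.488 against 0.333, 0.256 and 0.264 (difference -0.154, FDR 0.021 in the authors' deposited table). The 51-base exon (hg19 chr10:114918426-114918476), joined to the exon starting at 114920378, had 0.792, 0.863 and 0.792 in the first arm at D4. In the second arm it had 0.678, 0.507 and 0.488, a difference of -0.258 with an FDR of 0.012 in the authors' deposited table. In each of these the arms did not overlap and the second arm was the lower. The 51-base and 73-base events joined to the exon starting at 114920378 held the same skipping counts, 20 in the first arm and 45 in the second. Both events of the 73-base exon share the junction to its upstream exon. The D4 events therefore share reads and are not independent. At D8 the 51-base exon, joined to the 73-base exon, had 0.482, 0.497 and 0.5 in the first arm and 0.394, 0.312 and 0.372 in the second (difference -0.134, FDR 0.006 in the authors' deposited table), the only call at that day. This pair was not called at D4, where the difference was 0.084, with the second arm the higher. The pair of the 51-base exon called at D4 was not called at D8 (difference -0.111, FDR 0.74 in the authors' deposited table). Since the arms are not named, no genotype is given to the lower levels.

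**Figure D5:**
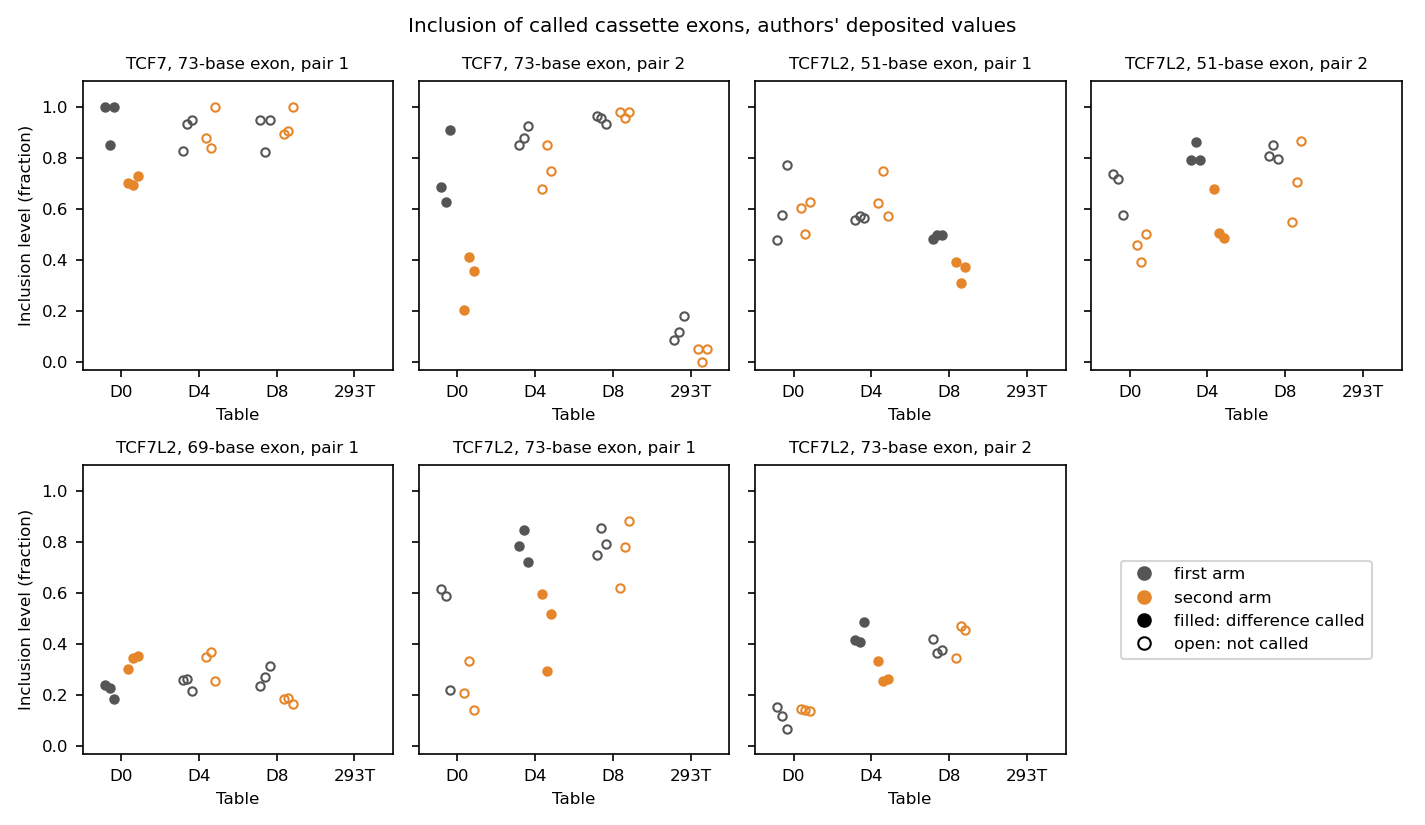
Inclusion level of the TCF7 and TCF7L2 exons in the authors' deposited tables, 1 panel per exon and pair of neighbouring exons, with 3 points for each of the 2 unnamed arms in the tables for D0, D4, D8 and 293T cells. Pairs are numbered by the start of the downstream exon, filled points mark called events, and a table without the event has no points. The TCF7 exon is split between arms at D0, and the 73-base exon of TCF7L2 at D4.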

How the data were processed

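Bulk poly(A)-selected RNA was sequenced in 18 whole-cell and 6 nuclear libraries. The authors deposited read counts per gene as whole numbers, 1 table for whole-cell and 1 for nuclear RNA, together with tables of skipped exons that hold junction counts, inclusion levels as a fraction, and p-values with an FDR. UMI-tools, cutadapt, STAR, featureCounts, DESeq and build hg19 are named, without versions, per the submitters' processing notes; no source used here says which tool made which table. The junction counts and inclusion fractions of the authors' deposited exon tables were used as given.

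CPM are counts scaled to each library's total over the genes that passed the low-count filter, multiplied by its TMM factor. These factors ran from 0.922 to 1.097 in whole-cell libraries. In nuclear RNA they were 0.766 to 0.918 under the KO label and 1.017 to 1.262 in WT. Nuclear CPM therefore differ from counts scaled to plain totals. Counts were tested in R 4.3.3 with edgeR 4.0.16 (filterByExpr, TMM scaling, quasi-likelihood test, two-sided) over all genes, with Benjamini-Hochberg adjustment over all genes tested and calls under 0.05. The 18 whole-cell libraries shared 1 fit and the 6 nuclear libraries had their own; DESeq2 1.42.0, total-count scaling, no low-count filter, leaving out each replicate, separate fits and a replicate block were alternatives. The procedure was tested on simulated data. Exon lengths for CPM per kilobase came from GENCODE v29 (GRCh38), used for lengths and sequence only. Whole-cell totals of 40001076 to 89948185 counts and nuclear totals of 6549676 to 15030590 set the precision, lowest for members of a few counts.

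The members, gene lists and named genes were chosen with earlier results of these data known. Named with values per library were AXIN2, SP5, LEF1, NKD1, NOTUM, RNF43, ZNRF3, TCF7 and LGR5. Added to these, per KO comparison, were up to 8 members in each direction (per WT time comparison up to 5). They had the largest change among those called with a mean of at least 1 CPM and no overlap of the groups. FZD6, FZD7, FZD8, FZD10, WNT5B and WNT9B are also given outside that rule, chosen after their values were seen. FZD10 averaged under 1 CPM.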

Additional observations from a re-analysis of the deposited data

Results flagged for a closer look

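The KO effect differed between 2 days, by the test of the difference itself, in 27 members from D0 to D4 and in 30 from D4 to D8; given here are those that were called in opposite directions on the 2 days. Groups of 3 were not tested for outlying libraries.

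From D0 to D4, 6 members changed from lower to higher in KO. The log2 effect moved by 2.83 for WNT10B (edgeR adjusted p = 1.2e-05), by 1.87 for RNF43 (5.6e-09) and by 1.79 for SFRP1 (9.4e-11). It moved by 1.49 for SP5 (0.00014), by 1.13 for WNT5B (0.0015) and by 0.59 for FZD6 (0.00045). AXIN1 changed from higher to lower, a move of -0.64 (1.6e-05). D0 cells had received no CHIR and D4 cells 1.5 uM in WT and 1.25 uM in KO, so the day, the dose and the genotype cannot be told apart in these moves.

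From D4 to D8, 6 members changed from higher in KO to lower in the libraries labelled KO. The move was -7.38 for WNT9B (edgeR adjusted p = 1.4e-11), -3.64 for RSPO1 (4.4e-07), -2.66 for LGR5 (4.2e-07) and -2.46 for WNT10B (0.00026). It was -0.94 for WNT3 (1.8e-05) and -0.64 for FZD6 (0.00014). FZD6 and WNT10B were called in opposite directions in both steps, and the D4 groups of FZD6 overlapped. The D8 call behind LGR5 also rested on groups that overlapped.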

How the results depend on the processing

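Over 85 results on single members and 910 alternative values, 878 kept their call status, 22 lost the call, 10 gained one and 0 reversed. A change of sign counted as a reversal only where the main or the alternative fit made a call. Many of these members had been chosen as called, apart and large in change, which favours stability. Over all members called in nuclear RNA, DESeq2 kept 29 calls and lost 9. There, total counts kept 30, lost 7 and changed 1 sign. Counts of members were less firm. The 7 members whose KO effect moved downward from D0 to D4 became 4 with total counts, and the 20 higher in nuclear RNA became 12. With DESeq2 the 19 lower in nuclear RNA became 9. The 1 called exon event at D8 became 0 with a difference of at least 0.2. Leaving out each replicate gave 5 to 9 members lower at D4 and 4 to 8 with a downward change of the effect to D4 (4 without D4 WT replicates 1 or 2 or KO replicate 1).

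Scaling also moved the balance of all genes. With total counts the share of called genes that were higher went from 57.6% to 73.8% at D4, from 52.9% to 37.6% at D8, from 48.7% to 25.6% in nuclear RNA (67.8% with DESeq2), and for the change of the effect from 51.1% to 62.9% to D4 and from 47.2% to 24.9% to D8. At D8 the all-gene median log2 fold change went from 0.01 to -0.12.

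Same-numbered libraries did not deviate together: correlations of their deviations were 0.039, -0.02 and 0.141 at D0, 0.034, 0.037 and -0.001 at D4, 0.04 and -0.111 at D8 and -0.167, -0.141 and 0.017 in nuclei, and not every library correlated best with its own number. With the number as a replicate block, members higher and lower numbered 8 and 14 at D0, 25 and 8 at D4, 22 and 14 at D8, and 20 and 18 in nuclei, and LGR5 (-0.79, adjusted p = 0.16) and ZNRF3 (0.27, 0.094) were not called at D8.

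Depth limits WNT2 before D8 and SP5 in nuclei, which rest on few counts.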
